A study of Mus musculus with 9 samples.

Results

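The binding of HOXA13 and HOXD13 was examined around 5 paired-type genes of the limb mesenchyme, Alx1, Alx4, Pax9, Prrx1 and Prrx2, out of 21910 protein-coding genes of the mouse annotation. A territory was the gene body and 100 kb to either side, and a listed interval (a stretch called as enriched) belonged to it when one of its summits, the points of highest signal, lay inside. CUT&RUN, in which an antibody directs a nuclease to cut the DNA around a bound factor, had been done on cells of the distal forelimb, the part of the limb bud that forms the digits, in embryos of strain B6CBAF1. The wild-type (wt) libraries were 3 with HOXA13 and 3 with HOXD13 antibody at E12.5. The II1TDOM 542 line (542) carries a second copy of the distal limb enhancer II1, joined to an HBB promoter and a LacZ reporter. The insertion lies in the regulatory domain on the other side of the HoxD cluster, and the study used homozygous embryos. This line was profiled at E12.5 with HOXA13 antibody in 2 libraries, and 1 library with HOXD13 antibody is titled E11.5. The study gives E12.5 for its CUT&RUN embryos, so the stage of the library titled E11.5 is uncertain. The 542 line is a single targeted allele, and the study pooled embryos for each library. The lists held between 23939 and 117719 intervals from 36.9 to 65.5 M read ends per library. Over the 5 genes together, the shortest wt list held 23 intervals and the longest wt list 74. Single genes did not always follow list length. Alx1 had 5 intervals in wt HOXA13 library 1 and 12 in wt HOXA13 library 3, whose list was shorter. Libraries numbered 3 of both antibodies shared deviations from the other wt libraries, and the contrasts of the anterior genes with Prrx1 and the consensus difference are also given without them. The files hold no measure of expression, so the identity of the cells was not checked against marker genes.

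Paired-type genes encode transcription factors named after the Drosophila gene paired. Alx1, Alx4, Prrx1 and Prrx2 carry a paired-type homeodomain, a domain that binds DNA, whereas Pax9 carries the paired domain and no homeodomain. Alx4 and Pax9 are expressed toward the anterior (thumb) side of the limb bud, where Alx4 restricts Shh signalling, and Prrx1 is expressed through most of the limb mesenchyme, with Prrx2 overlapping it. Alx1 is best known for its role in craniofacial mesenchyme. HOXA13 and HOXD13 are homeodomain factors of the distal limb.

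Alx4 lies at chr2:93642384-93681339 (mm10, plus strand), and its territory also holds Ext2 and Gm10803. Since it is on chromosome 2 beyond the insertion of the 542 line, only wt lists were used for it. Pax9 lies at chr12:56691767-56712822 (plus strand), with Nkx2-9 and Slc25a21 in its territory. Prrx1 lies at chr1:163245119-163313710 (minus strand), with Gorab nearby. Prrx2 lies at chr2:30834972-30881251 (plus strand) among 7 other coding genes, and Alx1 at chr10:102998707-103030215 (minus strand) with Lrriq1. Distances below are from the outer start of the gene, positive in the direction of transcription.

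The sequence at the best-shared site of each gene is shown first, because these are the places where both factors were called most often. Each run is 200 bases of the plus strand of GRCm38.p6 around the summit of highest fold enrichment. None of the 5 held a match to the HOX13 consensus searched (CCNATAAA, CCNGTAAA, CTNATAAA or CTNGTAAA, on either strand), so no base is in capitals.
Alx4 +130.4 kb, chr2:93772724-93772923: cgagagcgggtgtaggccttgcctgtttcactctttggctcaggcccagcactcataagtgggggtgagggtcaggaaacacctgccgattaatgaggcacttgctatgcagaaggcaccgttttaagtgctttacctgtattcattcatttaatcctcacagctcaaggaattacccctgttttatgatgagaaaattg
Pax9 -54.7 kb, chr12:56636958-56637157: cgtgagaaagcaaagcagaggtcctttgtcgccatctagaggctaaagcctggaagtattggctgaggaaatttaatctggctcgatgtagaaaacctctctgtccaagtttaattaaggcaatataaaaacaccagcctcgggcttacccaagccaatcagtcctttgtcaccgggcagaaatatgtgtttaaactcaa
Alx1 +128.2 kb, chr10:102901879-102902078: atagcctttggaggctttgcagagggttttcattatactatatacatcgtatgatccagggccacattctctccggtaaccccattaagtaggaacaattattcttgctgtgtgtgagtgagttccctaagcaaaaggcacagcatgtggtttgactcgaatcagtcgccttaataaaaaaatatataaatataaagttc
Prrx1 +31.6 kb, chr1:163281960-163282159: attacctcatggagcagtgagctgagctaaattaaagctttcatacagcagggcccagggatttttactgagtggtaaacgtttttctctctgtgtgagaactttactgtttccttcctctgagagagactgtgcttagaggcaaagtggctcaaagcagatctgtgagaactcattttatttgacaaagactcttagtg
Prrx2 +1.6 kb, chr2:30836475-30836674: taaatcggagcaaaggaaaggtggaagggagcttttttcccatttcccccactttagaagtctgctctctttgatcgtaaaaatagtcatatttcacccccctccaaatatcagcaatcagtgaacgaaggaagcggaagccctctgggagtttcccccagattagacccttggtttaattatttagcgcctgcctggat

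The next windows are shown because 1 is the Prrx1 promoter and the others hold a match, in capitals, at a site among the first 3 of its gene.
Prrx1 -0.5 kb, chr1:163314082-163314281: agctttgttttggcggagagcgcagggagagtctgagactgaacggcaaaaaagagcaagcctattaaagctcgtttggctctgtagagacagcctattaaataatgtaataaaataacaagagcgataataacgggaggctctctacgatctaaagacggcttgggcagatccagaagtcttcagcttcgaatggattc
Prrx1 +163.1 kb, chr1:163150510-163150709: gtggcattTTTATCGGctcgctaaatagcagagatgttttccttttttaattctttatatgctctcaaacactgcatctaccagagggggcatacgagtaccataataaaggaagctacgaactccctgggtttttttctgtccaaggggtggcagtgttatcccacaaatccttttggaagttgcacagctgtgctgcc
Alx1 +116.0 kb, chr10:102914102-102914301: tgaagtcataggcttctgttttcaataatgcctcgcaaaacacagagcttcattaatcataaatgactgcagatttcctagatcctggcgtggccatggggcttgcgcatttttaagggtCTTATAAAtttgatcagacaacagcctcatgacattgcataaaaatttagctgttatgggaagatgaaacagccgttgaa

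In the wt lists the 5 territories held 114 merged sites, a site being a chain of intervals that overlap by at least 1 bp. Of these, 16 were in all 6 lists and 55 in 1 list. Over the genome, 10.0% of merged sites were in all 6 wt lists and 50.6% were in 1. The share in all 6 was 18.5% (5 of 27) for Prrx1 with a 95% Wilson interval of 8.18 to 36.7%, 18.2% (4 of 22, 7.31 to 38.5%) for Pax9, and 15.4% (4 of 26, 6.15 to 33.5%) for Prrx2. It was 8.33% (2 of 24, 2.32 to 25.8%) for Alx4 and 6.67% (1 of 15, 1.19 to 29.8%) for Alx1. All 5 intervals included the genome value.

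**Figure D1:**
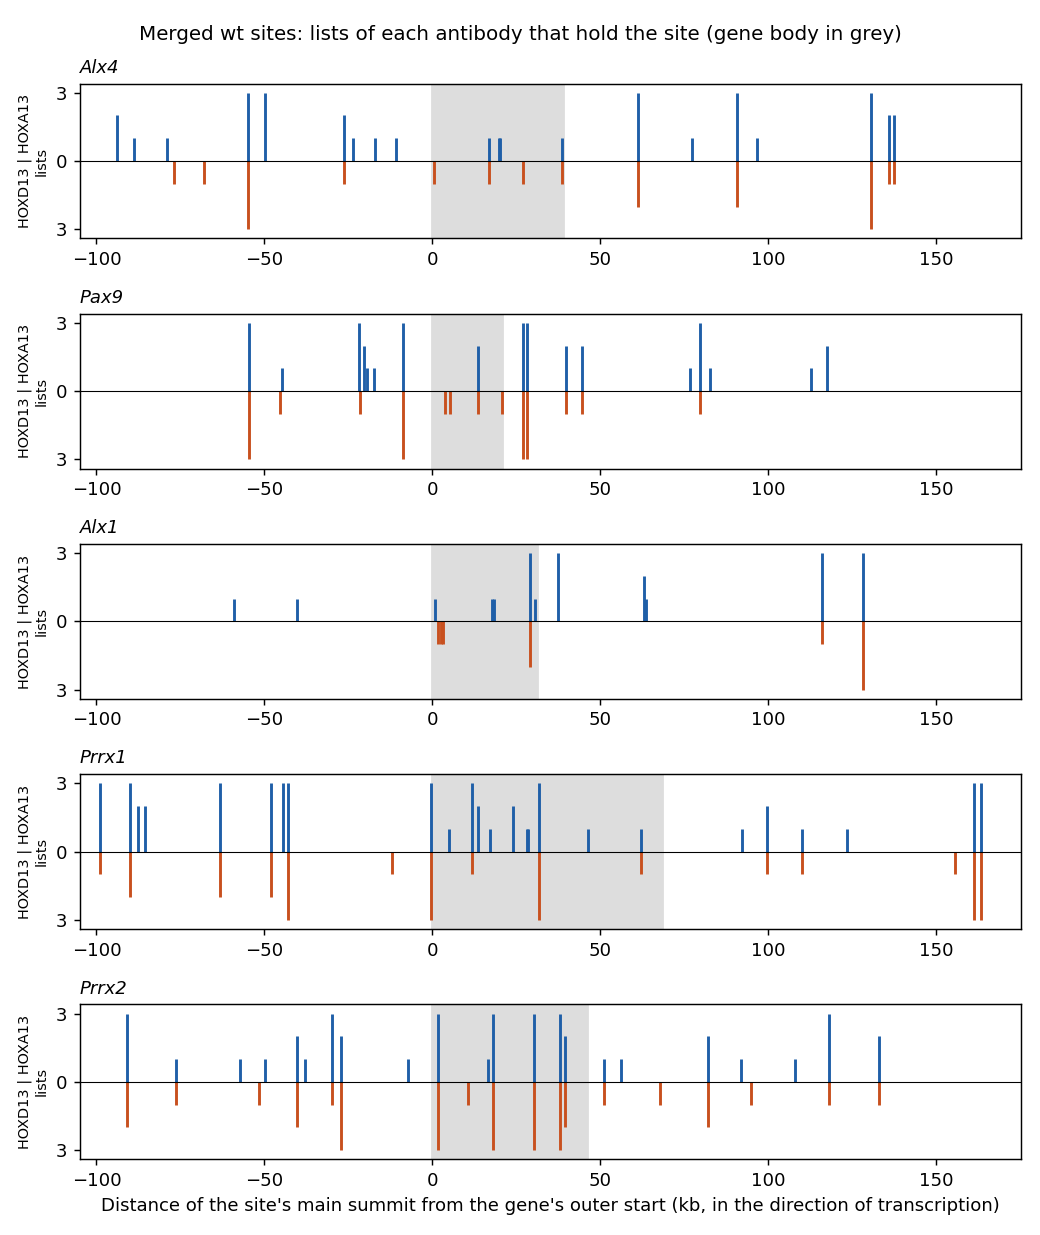
Merged wt sites around each gene by distance from its outer start in kb. Lines above 0 give the number of HOXA13 lists holding the site and lines below 0 the number of HOXD13 lists; the gene body is grey. Sites in all 6 lists lie upstream and downstream of Pax9 and Alx4, downstream of Alx1, within the body of Prrx2, and at the start, within the body and on both sides of Prrx1.

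Around the anterior genes, the sites shared by all 6 wt lists lay away from the starts. At Pax9, the best-shared site, chr12:56636679-56637564, was intergenic at -54.7 kb and was in all 6 wt and all 3 542 lists. Its fold enrichment was 12.4, 8.29 and 6.57 in the HOXA13 libraries 1 to 3 and 5.47, 7.92 and 4.62 in the HOXD13 libraries 1 to 3. The ranges of the antibodies overlapped. A second intergenic site at -8.7 kb, chr12:56682254-56683906, gave 9.93, 8.65 and 5.76 with HOXA13 and 3.52, 6.33 and 4.07 with HOXD13, and was also in the 3 542 lists. The other Pax9 sites in all 6 lists, at 26.9 and 28.2 kb, lay in introns of Slc25a21, which encodes a mitochondrial carrier.

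At Alx4, the sites in all 6 wt lists were chr2:93772154-93773208 in an intron of Ext2, at 130.4 kb, and the intergenic chr2:93587141-93588283 at -54.9 kb. The former had fold enrichments of 9.04, 5.28 and 3.90 with HOXA13 and 5.42, 8.20 and 5.14 with HOXD13. The latter gave 9.03, 5.15 and 2.33 with HOXA13 and 5.12, 4.45 and 3.66 with HOXD13. The highest value around any of the 5 genes, 13.1 in HOXA13 library 1, was at an Alx4 site in another Ext2 intron, chr2:93703075-93703792, at 61.1 kb. That site was in 5 lists, with 8.30 and 4.38 in the other HOXA13 libraries, 4.11 and 9.32 in HOXD13 libraries 1 and 2, and no call in HOXD13 library 3. Ext2 encodes an enzyme of heparan sulfate synthesis, and the lists do not tie a site to either gene.

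At Prrx1, the site with the most lists and the highest median percentile of fold enrichment was in an intron, chr1:163281452-163282556, at 31.6 kb. It gave 12.8, 10.2 and 5.75 with HOXA13 and 6.65, 8.70 and 5.23 with HOXD13. Its pileup, the number of extended read ends over the summit, was 275, 130 and 92 in HOXA13 libraries 1 to 3 and 57, 157 and 72 in HOXD13 libraries 1 to 3. Per 1 M read ends of the library this was 4.98, 2.76 and 2.06 with HOXA13 and 1.48, 2.62 and 1.95 with HOXD13. The ranges of the antibodies overlapped, and HOXA13 library 1 was the highest. The promoter site followed, chr1:163313277-163315299, with 10.2, 8.46 and 6.17 with HOXA13 and 4.04, 6.08 and 5.51 with HOXD13. The 3 542 lists gave between 8.96 and 10.1 at the promoter and between 8.40 and 12.47 in the intron. The other Prrx1 sites in all 6 lists lay at 163.1 and 161.1 kb, beyond the 3' end of the gene, and at -43.0 kb, so 4 of its 5 such sites were also away from a start.

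**Figure D2:**
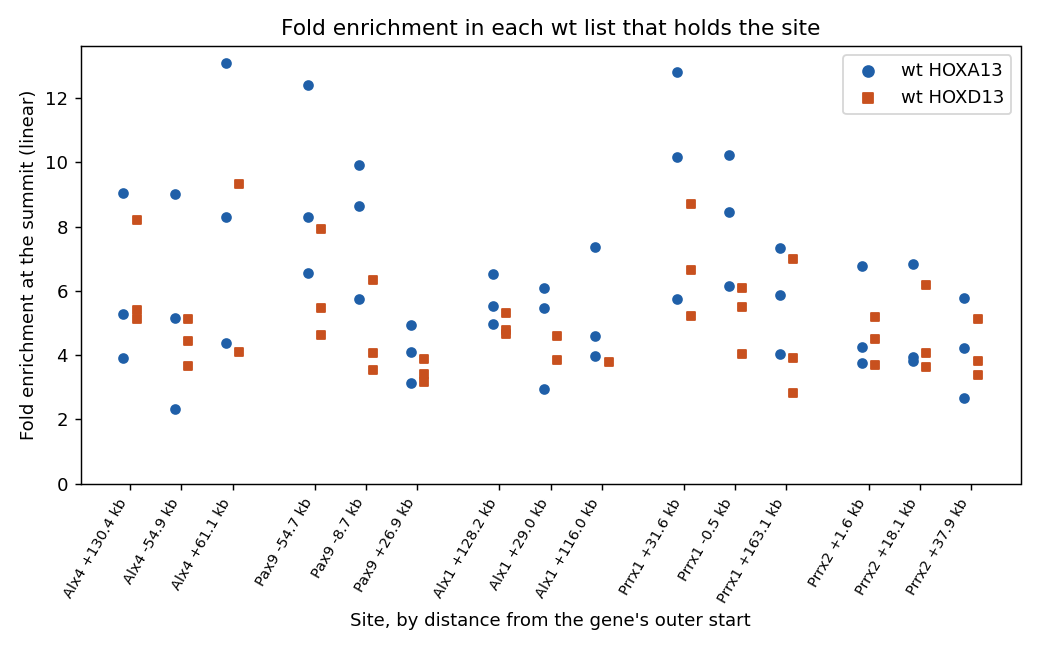
Fold enrichment (linear, summit over local background) at the 3 first-ranked sites of each gene, 1 point per wt list that holds the site, HOXA13 as circles and HOXD13 as squares. The Alx4 site at 61.1 kb reaches 13.1, Prrx1 12.8 and Pax9 12.4, while Prrx2 and Alx1 stay at or under 7.38.

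Prrx2 had 4 sites in all 6 lists, every one in an intron of the gene, from 1.6 to 37.9 kb. The first, chr2:30836197-30837341, gave 6.76, 4.26 and 3.75 with HOXA13 and 3.69, 5.18 and 4.51 with HOXD13. Fold enrichment around Prrx2 was highest, 10.9 in HOXD13 library 2, at -90.8 kb in a site of 5 lists. Alx1 had 1 site in all 6 lists, chr10:102901014-102902641, 128.2 kb from its start and intergenic, with values between 4.66 and 6.51. An intronic Alx1 site at 29.0 kb was in 5 lists and reached 6.08.

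Of the 5 genes, Prrx1 had a call at its start in every list. A summit lay within 1 kb of a Prrx1 start in 6 of 6 wt lists and in the 3 542 lists, the nearest between 11 and 461 bp away in the wt lists. Across coding genes, 19.7% had such a call in all 6 wt lists and 37.0% in none. In the 542 line, the study took a further CUT&RUN peak over the inserted HBB promoter as likely non-specific nuclease signal. The lists were called without a control, and whether calls at starts reflect binding was not tested. At Alx4, Pax9 and Prrx2 the call was in 1 wt list each, HOXD13 library 2, with fold enrichments of 3.07, 2.59 and 2.09. The Pax9 and Prrx2 calls lay at inner starts, 3.8 and 10.5 kb from the outer start. At Alx1 a call was in 2 lists, HOXD13 library 2 (4.63, at 1.7 kb) and HOXA13 library 3 (2.33, at 0.8 kb), each at a site of its own. The inner Pax9 start was called in both 542 HOXA13 lists, at 3.02 and 3.25, and in none of the 3 wt HOXA13 lists. Of the coding genes usable in both genotypes, 0.514% had this pattern. The 542 HOXA13 lists held 99090 and 74344 intervals, and the difference was not tested. The RefSeq promoter of Pax9 (GRCm38.p6, plus strand) is a window around the RefSeq start. It is shown because it borders that call and holds a match, in capitals. The match, chr12:56695396-56695403, lies outside the wt site at this start, chr12:56695500-56695755. The RefSeq promoters of Prrx1 and Prrx2 held no match. Of 32851 RefSeq promoters of this length, 10.3% held a match.
Pax9 promoter, chr12:56695221-56695520: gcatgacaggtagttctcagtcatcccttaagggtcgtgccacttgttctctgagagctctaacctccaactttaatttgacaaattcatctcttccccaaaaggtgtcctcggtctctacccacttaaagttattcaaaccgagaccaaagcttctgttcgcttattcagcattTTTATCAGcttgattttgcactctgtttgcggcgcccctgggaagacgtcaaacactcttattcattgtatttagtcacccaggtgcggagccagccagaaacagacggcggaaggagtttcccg

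Interval density was higher around Prrx1 than around either anterior gene in every wt library. For Prrx1 it was 7.82, 6.70 and 6.33 intervals per 100 kb in HOXA13 libraries 1 to 3 and 2.61, 4.84 and 4.84 in HOXD13 libraries 1 to 3. Pax9 had 6.33, 4.07 and 5.43 with HOXA13 and 2.26, 4.07 and 4.07 with HOXD13. Alx4 had 6.28, 4.60 and 3.35 with HOXA13 and 1.26, 4.60 and 2.09 with HOXD13. The gap was smallest in HOXD13 library 2, where Alx4 and Prrx1 were 4.60 and 4.84.

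The contrast, the mean log2 density of Alx4 and Pax9 less that of Prrx1 with 0.5 added to each count, was -0.47 ± 0.20 (SD, n = 6 libraries), a ratio of 0.723. It was negative in 6 of 6 libraries. The two-sided exact sign-flip permutation test gave p = 0.03125, the smallest that 6 libraries allow, and 0.203 after Benjamini-Hochberg adjustment over 13 tests, so the difference did not pass the threshold. It was -0.48 ± 0.16 with HOXA13 and -0.46 ± 0.28 with HOXD13 (SD, n = 3 each), and the antibodies did not differ detectably (difference -0.02, exact permutation p = 0.9, smallest possible 0.1). Without both libraries numbered 3 the contrast was -0.40 and the antibody difference -0.10.

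**Figure D3:**
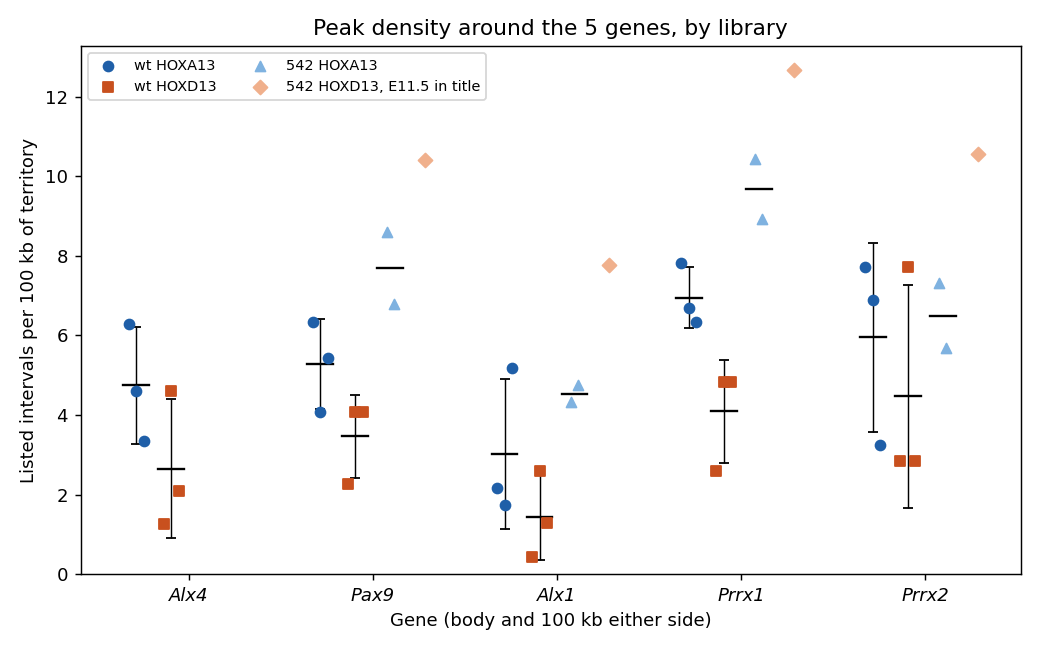
Listed intervals per 100 kb of territory for each gene and library, with the mean as a line and the SD as a bar for groups of 3. In the wt libraries both Alx4 and Pax9 lie below Prrx1, and the 542 HOXD13 library is highest at each of the 4 genes for which it was used.

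No difference in fold enrichment passed the threshold. On the within-list percentile, the median of the anterior genes less that of Prrx1 was 4.16 ± 14.3 percentile points (SD, n = 6), with single libraries from -10.8 to 26.9 (exact sign-flip permutation p = 0.594, adjusted p = 0.9). The anterior genes lay on opposite sides of Prrx1, with 13.6 points for Alx4 alone and -5.23 for Pax9 alone. Among the top 20000 intervals of each list the contrast was 6.92 points (exact sign-flip permutation p = 0.03125, adjusted p = 0.135), and without both libraries numbered 3 it was 2.22. On the percentile of −log10 p it was -15.7 points, the opposite direction.

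Among coding genes, the mean wt density of Prrx1 (5.52 per 100 kb) was at percentile 93.7, that of Prrx2 (5.21) at 91.4, Pax9 (4.37) at 82.0, Alx4 (3.70) at 69.6 and Alx1 (2.23) at 36.7. In single libraries the percentile ran from 56.5 to 97.4 for Prrx1, 70.5 to 97.7 for Prrx2, 46.0 to 94.3 for Pax9, 53.2 to 81.0 for Alx4 and 24.4 to 92.8 for Alx1, so the ranges of the genes overlapped. Neighbours in this order were closer than their SDs between libraries, which ran from 1.39 to 2.47. The densities were not scaled to list length, so these SDs do not measure differences between genes within a library. Of 34 other paired-type genes, 2 were above Prrx1, and 18 were above the median of coding genes, 2.85. The highest were Pitx1 (6.47), a hindlimb regulator, Hesx1 (6.33) and Dmbx1 (5.12). Among the lowest were Esx1 (0.323) and Pax8 (1.18). None of the 34 had a summit within 1 kb of a start in all 6 wt lists, and 16 had none in any list.

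By antibody, 49 of the 114 sites were in HOXA13 lists only, 18 in HOXD13 lists only and 47 in both. No genome share is given for these counts, so they do not set the genes apart. With at least 2 lists of HOXA13 and none of HOXD13 there were 12 sites (5 at Prrx1, 3 at Pax9, 2 each at Alx4 and Alx1), where the genome share was 6.56%. The reverse pattern had 0 sites, against 0.477% over the genome. The HOXA13 lists held 57367 to 86941 intervals and the HOXD13 lists 23939 to 76838, and the part of list length in these counts was not tested. The sites of this kind in most lists were those in all 3 HOXA13 lists. They lay at -49.9 kb for Alx4, -21.8 kb for Pax9, 37.5 kb for Alx1 and -44.4 kb for Prrx1, with fold enrichments from 1.95 to 3.18. The Prrx1 site, chr1:163357878-163358401, lay beside the -43.0 kb site, chr1:163355761-163357807, which was in all 3 HOXD13 lists. The Pax9 site, chr12:56669612-56670009, lay beside chr12:56670163-56670375, called in HOXD13 library 2. Such neighbours counted as separate sites only because their intervals did not overlap. The 542 HOXD13 list, the longest of the 9, had an interval overlapping the Pax9, Alx1 and Prrx1 sites. Its fold enrichment was 7.18, 5.86 and 4.62, so the pattern holds for the wt lists only. The neighbouring sites at Pax9 and Prrx1 had the same 542 values, so 7.18 and 4.62 cannot be assigned to the HOXA13 site alone.

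Scaled to 10000 listed intervals, the HOXA13 to HOXD13 ratio was 1.17 for Alx4, 0.936 for Pax9, 1.06 for Prrx1, 0.855 for Prrx2 and 1.29 for Alx1. Each exact permutation p was 0.2 or above (smallest possible 0.1), and no adjusted p was below 0.867. In none of the 5 did the antibodies separate, where 2.55% of coding genes had every HOXA13 library above every HOXD13 library and 8.45% the reverse. The ratio of 542 to wt with HOXA13 was 1.12 for Pax9, 1.07 for Prrx1, 0.888 for Prrx2 and 1.26 for Alx1 (exact permutation p between 0.4 and 0.7, smallest possible 0.1). With 3 against 2 or 3 libraries these tests cannot pass the threshold.

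The consensus was present in 50 bp around 8.11 to 16.2% of main summits in the territories, and in 0 to 2.70% of windows 1000 bp away. The control count of 0 in HOXA13 library 2 allows a share of up to 2.54%. The difference was 8.68 percentage points and positive in 6 of 6 libraries (exact sign-flip permutation p = 0.03125, adjusted p = 0.203). Over all listed intervals the share was 7.44 to 12.4%, and the 95% Wilson interval of the member share included its own list's share in each of the 6 libraries. In windows of 200 bp the member share was above that of all intervals in 5 of 6 libraries. In HOXA13 library 1 it was 43.2% (32.6 to 54.6%) against 30.3%. In every other library the interval included its own list's share. In these windows, 2 of the 16 sites in all 6 lists and 13 of the 55 sites in 1 list held it. No genome share is given for these kinds of site, and their difference was not tested.

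**Figure D4:**
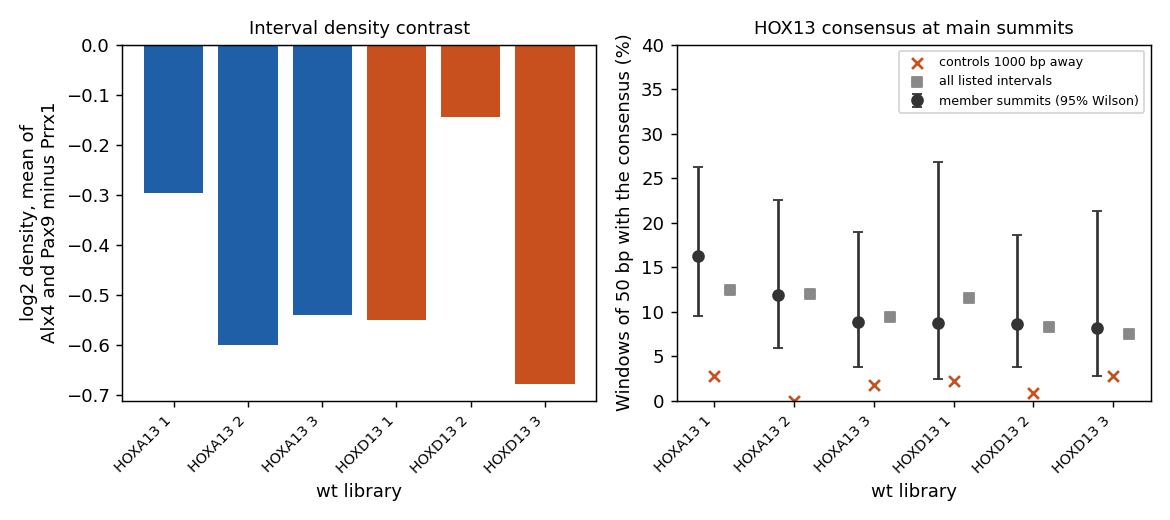
Left, log2 density of Alx4 and Pax9 less Prrx1 in each wt library, from -0.68 to -0.14. Right, percent of 50 bp windows with the consensus at member summits (points, 95% Wilson intervals), at controls 1000 bp away (crosses) and at all listed intervals (squares), where every member share is above its control.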

How the data were processed

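The deposited CUT&RUN peak lists, 1 per library, were grouped by title. According to the methods, reads were trimmed with cutadapt and mapped with Bowtie on mm10 (wt) or on the mutant genome (542). Mapping quality under 30 and discordant pairs were removed, and peaks were called per library with MACS2 without a control. The study states that duplicates were removed, but its listed commands only marked them and kept all duplicates in peak calling. The pileups and read ends may therefore include duplicates. Every listed q-value was at most 0.05. Fold enrichment in the deposited lists is the ratio of summit pileup and local background, each plus 1. The deposited −log10 values (p-value and q-value) are those of MACS2's Poisson model, and the deposited score is a whole number derived from the q-value. Mapping on a changed genome shifts coordinates past the insertion, so those 542 values were not used, and the quality filter removes repeats.

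Rows with equal ends were joined to 1 interval. Pileup and background were solved from fold enrichment and p. Wilson intervals cover counting error only, and p-values measure the spread between libraries. Sequence and genes came from GRCm38.p6 and GENCODE M21, in which Drgx is Prrxl1 and no wt interval passed a chromosome end. Named were the sites at a start, the 3 in most lists per gene (ties by percentile), and the 1-antibody site in most lists, plus the 3 densest and sparsest other paired-type genes, of which 1 is not reported here. Members and lists were chosen with earlier results of these data known. Alternatives were flank, thresholds, list length, single genes, replicate block and left-out libraries. Functions were tested on simulated data. BH adjustment covered 13 tests. Python libraries numpy, pandas, scipy and pysam were used.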

Additional observations from a re-analysis of the deposited data

How the results depend on the processing

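No adjusted p fell below 0.05 in any of the 13 tests, as reported or under an alternative. The density contrast of the anterior genes against Prrx1 stayed negative in its 19 alternatives (-0.94 to -0.28, adjusted p 0.203 to 0.9) and the consensus difference stayed positive in its 12 (4.78 to 24.4 points, adjusted p 0.203 to 0.9). With 1 library left out they ran from -0.53 to -0.43 and from 7.71 to 9.34. Leaving out both libraries numbered 3, chosen after seeing the data, gave -0.40 and 9.91, in a design whose smallest p is 0.125. The cause of the changes that follow was not tested. The antibody difference in that contrast was 0.045 with flanks of 200 kb, 0.14 with Alx4 alone, and -0.13 to 0.13 with 1 library left out. The fold enrichment contrast was 13.6 with Alx4 alone, 6.92 in the top 20000 intervals, -5.23 with Pax9 alone, -15.7 on −log10 p, and -0.38 to 7.15 with 1 library left out, the lowest without HOXD13 library 3. It had no value at a fold enrichment of at least 5, where a territory was empty. On the log2 scale, the antibody ratio at that threshold was -0.81 for Alx4 and 0.24 for Pax9, and unscaled it was 0.60 for Pax9 and 0.47 for Prrx2. With 1 library left out it was -0.18 to 0.71 for Alx1, -0.42 to 0.10 for Pax9, -0.22 to 0.29 for Prrx1 and -0.46 to 0.042 for Prrx2. The genotype ratio at a fold enrichment of at least 5 was -0.36 for Alx1, -0.28 for Pax9, -0.79 for Prrx1 and 0.58 for Prrx2. It was -0.37 for Alx1 in the top 20000 intervals and 0.20 for Prrx2 unscaled. With 1 library left out it was -0.014 to 0.88 for Alx1, -0.011 to 0.20 for Prrx1 and -0.44 to 0.066 for Prrx2. The percent of sites in all 6 lists moved outside its interval for Alx1 (0 in 3 of 4 settings), Alx4 (0 with flanks of 50 kb), Prrx1 (7.69 with summits linked within 200 bp, 38.5 in the top 20000) and Prrx2 (6.06 with linked summits).

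Same-numbered libraries correlated in their deviations at 0.0855, 0.144 and 0.344 and HOXA13 library 1 correlated best with HOXD13 library 2 (0.224), so the numbers were not taken as pairs. The replicate block left the density contrast at -0.47 with an exact permutation p of 0.25, the smallest that 3 pairs allow, and changed no call. Lists of 23939 to 86941 wt intervals limit what is called: an absent call is not absent binding.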
